A study of Homo sapiens with 6 samples.

Results

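The genes of cell-cell junctions were examined on the gene lists deposited with a study of migrating SiHa cells: the cadherins, protocadherins, desmosomal proteins, catenins, claudins, zonula occludens proteins and connexins. Members were chosen by symbol alone, as every listed symbol that starts with PCDH, CTNN or CLDN, that has a number right after CDH, DSC, DSG, PKP, TJP, GJA, GJB or GJC, or that is DSP, JUP or OCLN. They came to 60 of the 8942 symbols that stood on 1 of the lists. Of the 60, 13 (21.7%) were on the list of high expression and 47 (78.3%) on the list of low expression, while over all 8942 symbols 50.6% were on the high and 49.4% on the low list.

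SiHa is an established line from a cervical squamous cell carcinoma. The cells were placed on the membrane of transwell plates with 6 wells and collected after 10 hours as a migrated and a non-migrated fraction, with no agent or genotype named in the labels and 3 libraries each in numbered sets. Both lists are named for the level of expression and give a symbol, an hg19 position and a strand, with no expression value for any gene. The sources used here do not say how their genes were selected, or from which of the fractions, so membership was read as a level in these cells and not as a difference between the fractions. The deposited table of estimated counts identifies its loci by assembly number only, so no fold change, replicate spread or test can be given for a member, and each comparison that follows is a description. In bulk RNA, fewer cells of a type and less RNA per cell cannot be told apart. That table held 23166447 to 25662866 assigned fragments per migrated library and 18226280 to 33466924 per non-migrated library. Of its 26006 loci, 7820 (30.1%) had no fragment in any library, more than the 4436 entries of the low list, so a gene on neither list has no known level here.

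Cadherins are calcium-dependent adhesion receptors whose cytoplasmic tails bind catenins, and the catenins tie them to actin at adherens junctions. In desmosomes, desmogleins and desmocollins bind plakoglobin and plakophilins, and desmoplakin ties that plaque to keratin filaments. Claudins and occludin seal tight junctions, which zonula occludens proteins hold at the cell cortex, and connexins form the channels of gap junctions. Protocadherins have cadherin repeats but tails unlike those of classical cadherins, and most are known from the nervous system. Epithelial tumour cells that become motile are often described as exchanging E-cadherin for N-cadherin.

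Desmogleins, alpha catenins and p120 catenins were the subfamilies with genes on opposite lists, and promoters are shown for 6 of these genes and for DSC2, a desmocollin, to set them side by side. Each line gives the 250 bases before the gene start, in the direction of transcription, from the RefSeq promoter table (GRCh38.p14). Capitals mark each CpG dinucleotide, the site of vertebrate DNA methylation. The high-list promoters of DSG2 (26 CpG) and CTNNA1 (33 CpG) were dense in CpG, those of DSG1 (3 CpG), CTNNA2 (2 CpG) and CTNNA3 (2 CpG) were poor, and DSC2 (12 CpG) lay between. CTNND2, on the low list, held 25 CpG and is the exception.
DSG2 (high list, chr18:31497927-31498176, plus strand): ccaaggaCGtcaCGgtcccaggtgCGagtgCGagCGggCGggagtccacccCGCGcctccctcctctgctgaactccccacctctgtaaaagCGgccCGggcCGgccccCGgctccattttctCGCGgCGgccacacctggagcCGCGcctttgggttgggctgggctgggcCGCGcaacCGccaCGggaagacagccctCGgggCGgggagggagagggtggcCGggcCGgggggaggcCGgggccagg
DSG1 (low list, chr18:31317910-31318159, plus strand): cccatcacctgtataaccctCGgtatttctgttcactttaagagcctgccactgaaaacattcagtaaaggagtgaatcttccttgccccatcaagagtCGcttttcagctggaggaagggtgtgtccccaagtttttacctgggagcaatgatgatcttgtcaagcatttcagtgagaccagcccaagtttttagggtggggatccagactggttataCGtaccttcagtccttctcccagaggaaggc
DSC2 (low list, chr18:31102422-31102671, minus strand): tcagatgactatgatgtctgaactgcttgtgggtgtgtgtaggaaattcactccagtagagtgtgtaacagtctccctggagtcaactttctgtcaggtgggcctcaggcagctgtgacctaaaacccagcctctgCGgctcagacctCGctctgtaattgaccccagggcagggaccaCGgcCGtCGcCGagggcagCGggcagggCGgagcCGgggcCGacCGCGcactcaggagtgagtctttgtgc
CTNNA1 (high list, chr5:138753175-138753424, plus strand): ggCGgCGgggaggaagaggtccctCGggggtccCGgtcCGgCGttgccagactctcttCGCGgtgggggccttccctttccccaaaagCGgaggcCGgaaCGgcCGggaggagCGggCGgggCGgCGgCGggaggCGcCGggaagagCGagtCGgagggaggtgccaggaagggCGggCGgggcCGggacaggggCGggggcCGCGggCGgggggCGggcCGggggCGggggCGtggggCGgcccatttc
CTNNA2 (low list, chr2:79185127-79185376, plus strand): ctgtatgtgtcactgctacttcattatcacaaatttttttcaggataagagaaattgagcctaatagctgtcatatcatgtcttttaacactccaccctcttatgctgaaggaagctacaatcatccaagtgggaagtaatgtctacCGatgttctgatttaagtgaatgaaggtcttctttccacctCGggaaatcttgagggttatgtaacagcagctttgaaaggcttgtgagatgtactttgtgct
CTNNA3 (low list, chr10:67696196-67696445, minus strand): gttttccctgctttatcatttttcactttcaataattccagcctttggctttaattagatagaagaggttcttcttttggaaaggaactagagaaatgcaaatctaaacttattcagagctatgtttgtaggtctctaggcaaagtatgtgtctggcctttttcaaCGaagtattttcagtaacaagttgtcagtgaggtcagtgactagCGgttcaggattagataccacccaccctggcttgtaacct
CTNND2 (low list, chr5:11904447-11904696, minus strand): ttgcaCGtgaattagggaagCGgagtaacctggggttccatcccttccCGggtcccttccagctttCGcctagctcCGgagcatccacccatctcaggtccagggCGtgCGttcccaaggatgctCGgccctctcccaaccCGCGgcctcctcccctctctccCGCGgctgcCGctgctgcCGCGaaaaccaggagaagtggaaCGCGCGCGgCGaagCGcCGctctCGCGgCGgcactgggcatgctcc

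To give the genes on neither list their place, the same name rule was applied to the RefSeq protein coding genes, and 158 matched. Of these, 13 (8.23%) were high, 41 (25.9%) low and 104 (65.8%) on neither list, while of all 20056 RefSeq protein coding genes 22.3% were high and 18.8% low. The other 6 low members were antisense RNAs. Of 138 receptors and channels of the membrane, occludin included, 2 were high (CDH13 and DSG2), 38 were low and 98 were on neither list. Of 15 plaque proteins, catenins and zonula occludens proteins, 8 were high, 3 low and 4 on neither list. The remaining 3 high members match the name rule without belonging to the families.

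**Figure D1:**
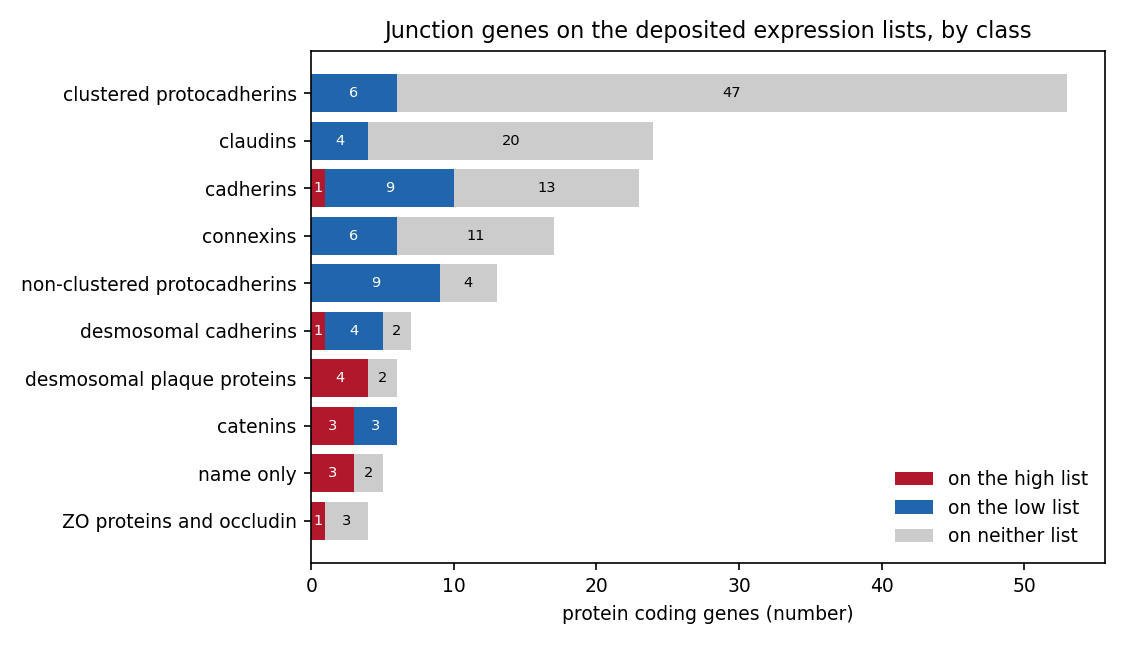
Number of protein coding genes in each junction class (horizontal axis), by deposited list: red for the high list, blue for the low list and grey for neither. Plaque proteins have 4 high and no low genes, clustered and non-clustered protocadherins, claudins and connexins have no high genes, and the catenins are split 3 to 3.

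Among the 23 cadherins, 1 (4.35%) was high, 9 (39.1%) were low and 13 were on neither list. The shares of all RefSeq protein coding genes were 22.3% high and 18.8% low. The high one was CDH13 (T-cadherin), which has no cytoplasmic tail and is held in the membrane by a lipid anchor (hg19, 82660663 to 83829174 of chromosome 16). CDH2 (N-cadherin), the classical cadherin of neural and mesenchymal cells (25530930 to 25757410 of chromosome 18), was low. CDH1 (E-cadherin), the main epithelial cadherin, and CDH3 (P-cadherin) of basal epithelial layers were on neither list, as was CDH11 of mesenchymal cells. The lists therefore place N-cadherin at the low end but give no level for E-cadherin, so the ratio between them is unknown here. CDH5 (VE-cadherin), the endothelial cadherin, was also on neither list.

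The type II cadherins, which sort neurons and other cells by their matching receptors, were the cadherins listed most often. Of 13, 8 were low (61.5%, against 18.8% of all RefSeq protein coding genes) and none was high. Those 8 were CDH6, CDH7, CDH8, CDH9, CDH12, CDH18, CDH19 and CDH20. Of the 5 type I cadherins, CDH2 was low and CDH1, CDH3, CDH4 and CDH15 were on neither list. On chromosome 5 the type II genes follow each other as CDH18, CDH12, CDH10, CDH9 and CDH6, and CDH10 alone was not on the low list. The low genes of that row lie at 19473141 to 20575982 (CDH18), 21750777 to 22853731 (CDH12), 26880709 to 27121257 (CDH9) and 31193857 to 31329253 (CDH6) in hg19. CDH8 lies at 61685917 to 62070739 of chromosome 16 and CDH20 at 59000988 to 59223006 of chromosome 18. On chromosome 18, CDH7 and CDH19 lay within 854 kb (hg19, 63417488 to 64271409), both low.

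The protocadherins had no high member. Of the 53 clustered protocadherins, whose combinations give single neurons their surface identity, 6 were low and 47 on neither list. All 6 were PCDHB1 to PCDHB6, which stand side by side over 102 kb of chromosome 5 (hg19, 140430979 to 140532868). The next genes of that cluster, from PCDHB7 on, were on neither list, and neither were the 15 alpha and 22 gamma genes. Each of the 6 had a single exon, and the deposited intervals are 2.53 to 3.62 kb long. RefSeq spans are longer, with 7.97 kb for PCDHB1 and 4.09 kb for PCDHB2. Of the 50-base stretches of the PCDHB2 transcript, 33.3% also occur in other annotated genes, on either strand, most often in AC244517.5 (12.3%). For PCDHB3 it was 26.6%, most often shared with PCDHB2 (12.6%). Fragments may have been divided among such genes.

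Of 13 non-clustered protocadherins, 9 (69.2%) were low, against 39.1% of cadherins, 11.3% of clustered protocadherins and 18.8% of all RefSeq protein coding genes. The low ones were PCDH9, PCDH10, PCDH11X, PCDH11Y, PCDH15, PCDH17, PCDH18, PCDH19 and PCDH20. The delta protocadherins, which share short conserved tail motifs, made up 8 of these, and PCDH15, a part of the tip links of inner ear hair cells, was the other. PCDH1, PCDH7, PCDH8 and PCDH12 were on neither list. PCDH11X and PCDH11Y are copies on chromosomes X and Y whose reads are hard to separate, with 57.3% of the 50-base stretches of PCDH11X shared with PCDH11Y and 58.5% of those of PCDH11Y shared with PCDH11X. Their promoters were identical at 298 of 300 positions. PCDH20 shared 95.8% of its stretches with a second annotated gene, AL592490.1, so its assignment is uncertain too.

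PCDH9 and its antisense genes formed a block on the low list. PCDH9-AS1, PCDH9-AS2, PCDH9-AS3 and PCDH9-AS4 all lie inside PCDH9 on the other strand, within 928 kb of chromosome 13 (hg19, 66876967 to 67804468). CDH23-AS1 and CLDN10-AS1 were the other antisense members, and both were low while CDH23 and CLDN10 themselves were on neither list. The sources used here give no strand setting for the counting, so reads of an antisense gene and of its partner cannot be told apart.

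In the desmosome, most receptor genes were low and most plaque genes high. Of 7 desmosomal cadherins, DSG2 (14.3%) was high, DSC1, DSC2, DSG1 and DSG4 (57.1%) were low, and DSC3 and DSG3 were on neither list. The shares over all RefSeq protein coding genes were 22.3% high and 18.8% low. All 7 are neighbours on chromosome 18, in the order DSC3, DSC2, DSC1, DSG1, DSG4, DSG3 and DSG2. The listed ones span 483 kb (hg19, 28645940 to 29128813). The 4 low genes stand side by side and count as 1 locus when neighbours are merged. DSG2 (29078027 to 29128813) is the widespread desmoglein of simple epithelia and of dividing cells, and it stands at the end of the row. DSG1 (28898052 to 28936992) and DSC1 (28709199 to 28742819) belong to the upper layers of stratified epithelium, and DSG4 (28956740 to 28993880) to the hair follicle. DSC2 (28645940 to 28682378), the widespread desmocollin that usually partners DSG2, was low. None of the 3 desmocollins was on the high list, but DSC3 has no known level here. The lists therefore do not show whether DSG2 has a highly expressed partner among them.

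**Figure D2:**
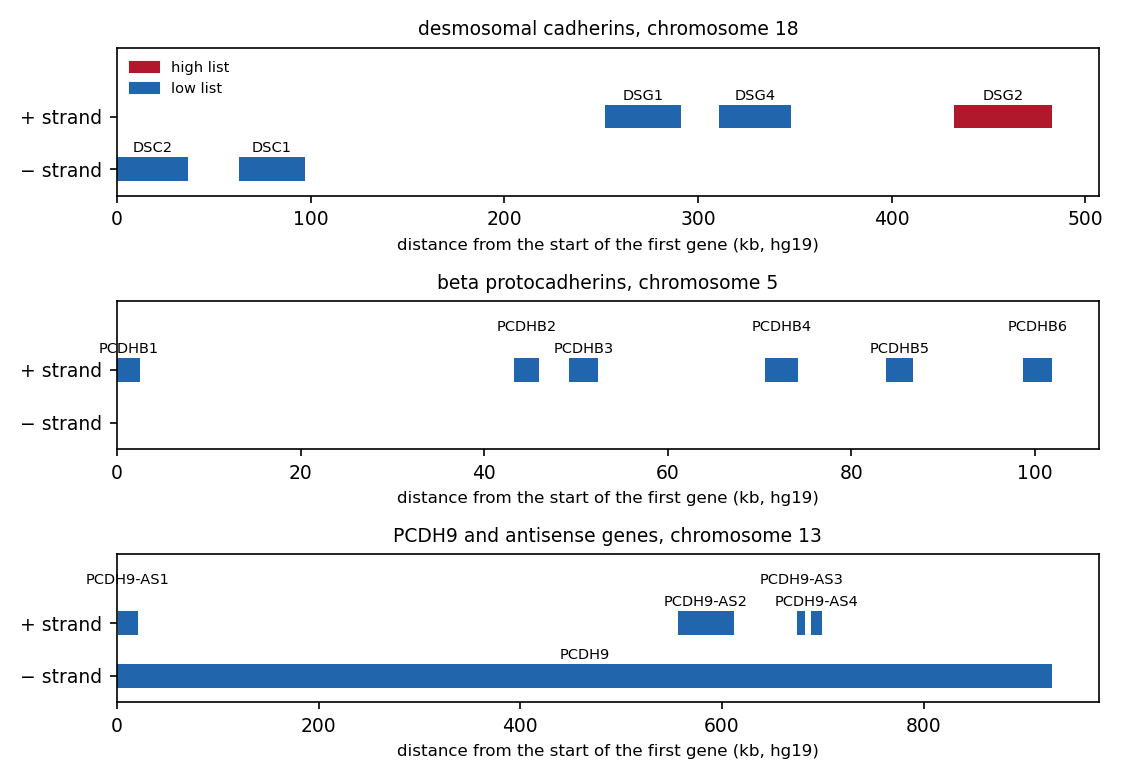
Position of members in 3 gene clusters, as distance in kb (hg19) from the start of the first listed gene, by strand; red boxes are genes of the high list and blue boxes genes of the low list. DSG2 is the only red box, at the end of a 483 kb row, while PCDHB1 to PCDHB6 and PCDH9 with its 4 antisense genes are all blue.

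Of 6 plaque proteins, 4 (66.7%) were high, against 22.3% of all RefSeq protein coding genes. None was low, against 18.8%, which says little for so few genes. The high ones were DSP (desmoplakin), JUP (plakoglobin), PKP3 and PKP4, and PKP1 and PKP2 were on neither list. DSP lies at 7541808 to 7586950 of chromosome 6, PKP3 at 392614 to 404908 of chromosome 11 and PKP4 at 159313476 to 159539391 of chromosome 2 (hg19). PKP1 is the plakophilin of upper epidermal layers, PKP3 is found in most epithelia, and PKP4 (p0071) is widespread and also occurs at adherens junctions. The interval deposited for JUP (39775692 to 39943183 of chromosome 17) is 167 kb long, 5.22 times the RefSeq span of 32.1 kb. It holds EIF1, a high-list translation factor gene, and GAST, a low-list gastrin gene, both on the other strand, and overlaps KRT17, a high-list keratin gene on the same strand. Whether reads of these neighbours put JUP on the high list was not tested. Of 7 further desmosome and cornified plaque genes outside the name rule, 5 (71.4%) were high (among them DST, EVPL, PERP and PLEC) and none low.

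The catenins were all listed and split by tissue. CTNNA1, CTNNB1 and CTNND1, the alpha, beta and p120 catenins of nearly all cells with cadherins, were high. CTNNA2 and CTNND2, the neural alpha and delta catenins, and CTNNA3, the alpha catenin of heart and testis, were low. In hg19, CTNNA1 lies at 137946656 to 138270723 of chromosome 5, CTNNB1 at 41236328 to 41281936 of chromosome 3 and CTNND1 at 57520715 to 57587018 of chromosome 11. CTNNA2 lies at 79412357 to 80875905 of chromosome 2, CTNNA3 at 67679719 to 69455927 of chromosome 10 and CTNND2 at 10971952 to 11904155 of chromosome 5. CTNNA2 holds LRRTM1 and CTNNA3 holds LRRTM3, synaptic adhesion genes on the opposite strand that were low too. Each high catenin thus had a low relative of the same subfamily, except CTNNB1, the only beta catenin in the class.

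Of the genes around the catenins, those that link them to actin resembled the high members. In a list of 16 actin linkers of the adherens junction, 12 were high (among them ABLIM1, ACTN1, ACTN4 and AJUBA) and none low. In a list of 21 genes of cadherin and catenin turnover, 14 were high (among them ADAM10, ADAM15, APC and ARHGAP35) and none low. Of 5 nectin and afadin genes, AFDN and NECTIN2 were high and none was low. Of 21 regulators of cadherin transcription, ESRP2, KLF5 and TCF3 (14.3%) were high and GRHL2 and GSC (9.52%) were low, and 16 were on neither list. Of 18 atypical cadherins outside the name rule, 5 (27.8%) were high (among them CELSR1, CELSR3, CLSTN1 and CLSTN3) and CLSTN2, DCHS2 and FAT3 (16.7%) were low. Over all RefSeq protein coding genes, 22.3% were high and 18.8% low.

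Tight junction genes had a high scaffold and no high strand protein. TJP1 (ZO-1; hg19, 29991571 to 30261068 of chromosome 15) was high, while TJP3 and OCLN (occludin) were on neither list. Of 24 claudins, 4 (16.7%) were low, CLDN8, CLDN17, CLDN24 and CLDN25, near the 18.8% of all RefSeq protein coding genes. The other 20 were on neither list, CLDN1, CLDN3, CLDN4 and CLDN7 of common epithelia included. CLDN8 is best known from the distal nephron and colon, and CLDN17 adjoins it within 50.2 kb of chromosome 21 (hg19, 31538241 to 31588391). CLDN24 shared 53.4% of its 50-base stretches with CLDN22, which was on neither list. Of 33 other tight junction genes, 6 (18.2%, against 22.3% of all RefSeq protein coding genes) were high, among them AMOTL2, LSR, MARVELD1 and PALS1. Only ILDR1 was low (3.03%, against 18.8%).

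Connexins were low or unlisted. Of 17, 6 (35.3%, against 18.8% of all RefSeq protein coding genes) were low and 11 on neither list. GJA1, GJA4, GJA10, GJB1 and GJB6 were among the low ones. GJA1 (connexin 43) is the most widely expressed connexin and was the only low member among the junction genes assigned to most tissues. GJA4 is endothelial, GJB1 is of liver and myelinating Schwann cells and GJB6 is of epidermis and cochlea. The keratinocyte connexins GJB2 and GJB5 were on neither list. Of 7 gap junction genes outside the name rule, GJD2, GJD4 and GJE1 were low and none was high.

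Each gene was also assigned, from textbook knowledge, the tissue in which it is mainly expressed, and the counts over all classes were compared. Over all RefSeq protein coding genes, 22.3% were high and 18.8% low. Of 80 mainly neural genes, 25 (31.2%) were low, 55 were on neither list and none was high. The 80 include all 53 clustered protocadherins, of which 6 were low and 47 on neither list, so that class weighs heavily here. Of 9 widespread genes, 6 (66.7%) were high, GJA1 was low, and 2, PCDH1 among them, were on neither list. Of 13 genes of epithelia in general, 4 (30.8%) were high (DSG2, DSP, JUP and PKP3), DSC2 was low and 8 were on neither list. Of 13 genes of stratified epithelium, 4 (30.8%) were low (DSC1, DSG1, DSG4 and GJB6), none was high and 9 were on neither list. DSC3, DSG3, PKP1 and CDH3 of stratified epithelium, the tissue type of the tumour, were among those with no known level. Low genes numbered 1 of 5 endothelial genes and 2 of 10 genes of other organ epithelium. In muscle and heart, and in inner ear and retina, 1 of 3 genes was low in each. No gene of these 4 tissues was high, and most were on neither list. Groups this small cannot be told apart from the 22.3% high and 18.8% low of all RefSeq protein coding genes.

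**Figure D3:**
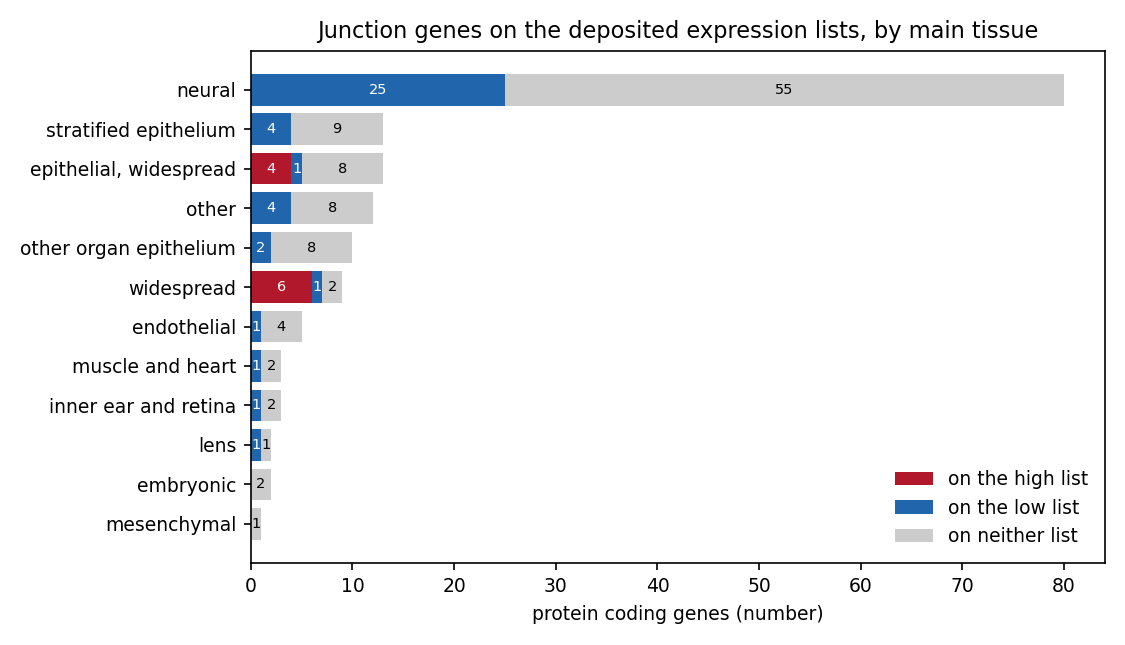
Number of protein coding junction genes by the tissue in which they are mainly expressed (textbook assignment, horizontal axis in genes), with red for the high list, blue for the low list and grey for neither. All 10 high genes with a tissue are in the widespread row (6) or the general epithelial row (4), and the neural row has 25 low genes and no high gene.

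Marker lists of cell types gave only a limited check of the labelled cell line, since many markers were on neither list. Of 14 epithelial markers, 5 were high (among them KRT7, KRT8, KRT17 and KRT18) and KRT5, a basal keratin, was low. The other 8, CDH1, EPCAM and TP63 among them, were on neither list. None of 12 mesenchymal, 10 endothelial or 10 leukocyte markers was high, and 2, 3 and 5 of them were low. The remaining 10, 7 and 5, with VIM and FN1 among the mesenchymal ones, were on neither list. Of 10 neural markers, TUBB3 was high, GFAP and OLIG2 were low and 7 were on neither list. The background was 22.3% high and 18.8% low over all RefSeq protein coding genes. Low mesenchymal (2 of 12) and neural markers (2 of 10) were about as frequent as that. Low endothelial (3 of 10) and leukocyte markers (5 of 10) were more frequent. The marker lists have no levels either, so a share of other cells in the libraries was not measured.

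The high members CTNNAL1, CTNNBL1 and CLDND1 are the ones outside the families. CTNNBL1 is a nuclear protein bound to spliceosome components, CTNNAL1 resembles alpha catenin, and CLDND1 carries a claudin-like domain. The deposited interval of CLDND1 is 25.2 kb, against 7.42 kb in RefSeq, and overlaps OR5K2, a low-list olfactory receptor gene. Without these 3 and the antisense RNAs, 10 members were high and 41 low (19.6% high).

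Gene size differed among the low members more than between the lists. In the deposited intervals, low members spanned 0.663 to 1825 kb, with a median of 36.4 kb, and high members 12.3 to 1169 kb, with a median of 71.0 kb. Over all listed genes the medians were 10.9 kb (low) and 33.2 kb (high), so members of both lists were longer than the background of their list. Of the 47 low members, 9 (19.1%) exceeded 500 kb, against 2.36% of all low genes. They were PCDH15 (1825 kb), CTNNA3 (1776 kb), CTNNA2 (1464 kb), CDH12 and CDH18 (both 1103 kb), CTNND2 (932 kb), PCDH9 (928 kb), PCDH11X (844 kb) and PCDH11Y (742 kb). On the high list only CDH13 (1169 kb) was that long, 7.69% of members against 0.464% of all high genes. Low claudins, at 0.663 to 2.07 kb, and PCDHB genes were at the other end, and 13 low members (27.7%) were under 5 kb, against 34.2% of all low genes.

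**Figure D4:**
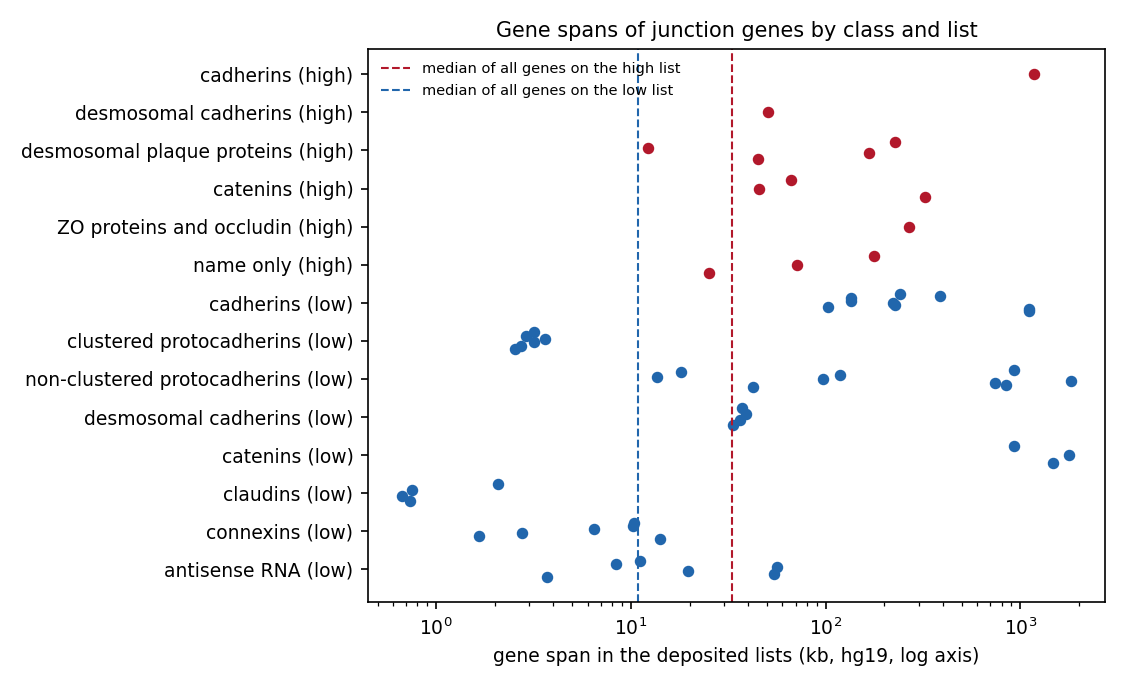
Span of each member in the deposited lists (hg19, kb, log axis) by class and list, with high members in red and low members in blue; dashed lines are the medians of all genes on each list, 33.2 kb (high) and 10.9 kb (low). Low members spread from claudins of at most 2.07 kb to catenins and protocadherins over 500 kb.

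Exon counts, taken from the coding transcript with the most exonic bases, followed the same classes. High members had a median of 17 exons, against 11 over all high genes, and low coding members a median of 5, the same as all low genes. Of 41 low coding members, 12 (29.3%) had a single exon, against 14.4% of all low genes. These were the 6 PCDHB genes, the 4 claudins and 2 connexins, GJA10 among them. No high member had a single exon, against 1.31% of all high genes.

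Promoter CpG content was compared over 300 bases, 250 before and 50 after the RefSeq gene start, as the CpG count relative to that given by the C and G content. The start annotated there need not be the one used in SiHa cells, and methylation was not measured. All 9 high members with an entry lay between 0.726 and 0.985 (median 0.846), all above 0.6, a mark often used for CpG islands, and 90.4% of all high genes did so. The 38 low members with an entry ranged from 0 to 1.07 (median 0.437), above the low-list median of 0.291, and 9 of them (23.7%) passed the mark, against 25.5% of all low genes. The CpG shares of the members were thus near those of their lists.

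Within the low list, 20 cadherins and protocadherins, the desmosomal cadherins set aside, had a median ratio of 0.562. The 7 claudin and connexin genes had a median of 0.102. Low PCDHB genes had a median of 0.650, low cadherins 0.517 and low non-clustered protocadherins 0.511. CDH2 was at 0.687, CDH8 at 0.793 and CTNND2 at 0.954, in the range of the high genes or near it. Low desmosomal cadherins had a median of 0.192, from DSC1 at 0.118 and DSG1 at 0.192 to DSC2 at 0.550, while DSG2 was at 0.826. As in the sequences printed above, CTNNA2 (0.259) and CTNNA3 (0.323) were far below CTNNA1 (0.892).

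**Figure D5:**
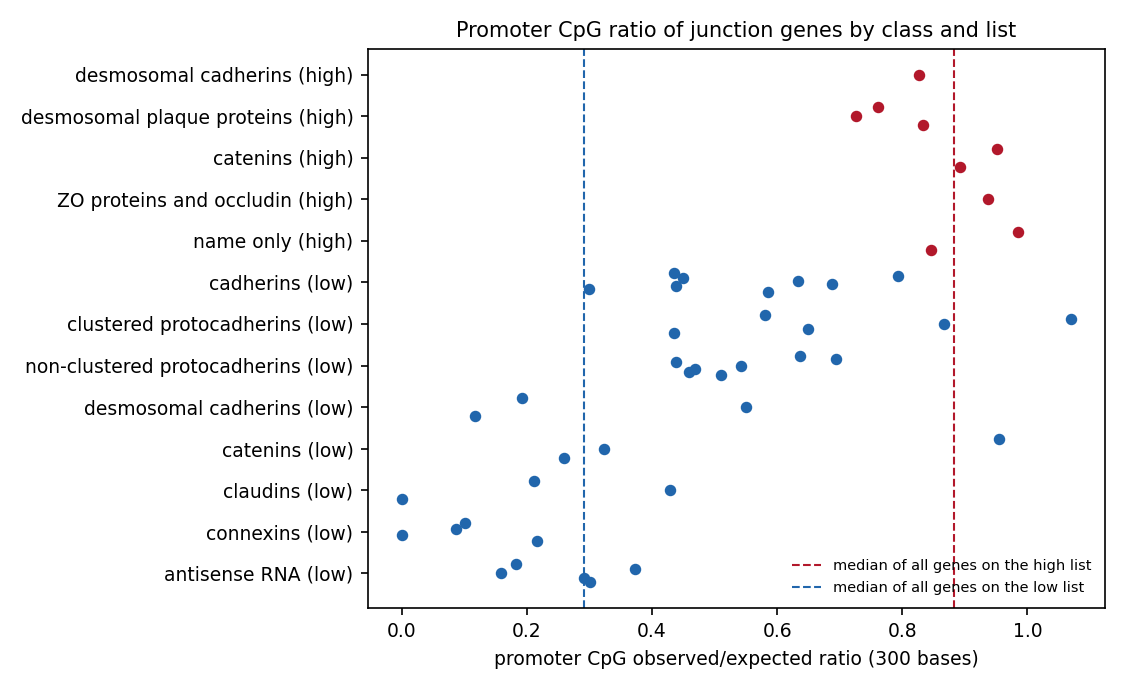
CpG observed to expected ratio of the 300-base RefSeq promoter (horizontal axis, no unit) of each member with an entry, by class and list, with high members in red and low members in blue; dashed lines are the medians over all genes of each list, 0.882 (high) and 0.291 (low). The 9 high members lie from 0.726 to 0.985, and low members reach from connexins and claudins at 0 to a PCDHB gene at 1.07.

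Promoters were also searched on both strands for CACCTG, an E-box bound by SNAI and ZEB repressors of E-cadherin, and for TATAAA, the core promoter element bound by TBP. These motifs do not overlap each other. CACCTG was found in 3 of 9 high promoters (DSG2, DSP and TJP1) and in 6 of 38 low promoters (CLDN25, DSC2, DSG1, GJB1, PCDH15 and PCDHB1), and in 20.6% of 27305 promoters. TATAAA was in no high promoter and in 7 low ones (CDH9, CLDN10-AS1, CLDN17, GJA10, PCDH9-AS1, PCDH9-AS3 and PCDH9-AS4), and in 12.0% of all promoters. The lists themselves differed, with TATAAA in 20.2% of all low and 5.07% of all high promoters, and CACCTG in 21.5% and 15.4%. The low members held TATAAA in 18.4% of promoters, and in 9.09% when the antisense RNAs, 4 of the 7, are set aside. Among the desmosomal cadherins, DSG2 of the high list and both DSG1 and DSC2 of the low list carried CACCTG. A match in this window is a description of the letters only.

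With other members counted as neighbours, members had neighbours on their own list about as often as other genes did. The nearest listed gene was on the same list for 9 of 13 high members (69.2%, against 76.2% of all high genes) and for 34 of 47 low members (72.3%, against 72.7% of all low genes). With other members set aside, 26 of 47 low members (55.3%) had a low gene as nearest neighbour. PCDHB1 to PCDHB6 were nearest to TAF7, a high-list gene for a general transcription factor subunit, 165 to 265 kb away. DSG2, on the high list, was nearest to TTR, a low-list gene, 42.9 kb away. By chromosome, members were most frequent on chromosomes 5 (1 high, 11 low), 13 (9 low) and 18 (1 high, 8 low), the chromosomes of the PCDHB, PCDH9 and desmosomal clusters.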

How the data were processed

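RNA of 6 SiHa libraries, 3 migrated and 3 non-migrated, was sequenced. CASAVA 1.8.2 and Cufflinks 2.2.1 are listed in the submitters' processing notes, along with TopHat2, Cuffdiff and hg19. Settings, annotation and strand handling are not stated there. Per the file headers, the deposited estimated counts are unscaled fragments for every locus in every library, which served here for depth and for loci at 0. The high and low lists hold 4531 and 4436 entries. Their value column is empty, 13 symbols repeated on the low list were counted once, and 4 symbols on both lists, none a member, were left out.

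Symbols were matched to RefSeq genes and promoters (GRCh38.p14), and exons came from GENCODE 29 basic transcripts. Shared 50-base stretches were sought on both strands in all GENCODE 29 transcripts of other genes. Genes within 1 Mb were called neighbours. Distances and positions of genes are hg19, and those of printed promoters are GRCh38. No test was run, because genes are not replicates and the lists have no values. Python 3.11.15 with pandas 2.3.3 was used. The CpG calculation, the name rule and the rounding were tested on made-up input, and the other steps were not.

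Members are named with their list, except for a few genes that are not reported here. Positions are given for classes on both lists and for clusters (as 1 interval), and sequences for paralogs on opposite lists. In other gene lists, the genes on the shorter side and up to 4 on the longer side, in alphabetical order, are named. The members, classes, tissues and gene lists were chosen with earlier results of these data known.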

Additional observations from a re-analysis of the deposited data

How the results depend on the processing

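No paired analysis was possible because no member has a value per library and no test was run. The alternatives were a stricter set of names, each cluster counted as 1 locus, older symbols, other backgrounds, RefSeq spans and other promoter windows. Of 46 alternatives over 17 results, 43 stayed within the limit set for them, which was the 95% binomial interval (exact) for a share and a factor of 1.5 for a count or a median. That interval is wide for classes with few genes. Part of the 43 could not have moved. The stricter names remove no gene of a junction class, and merging neighbours cannot change a class whose listed genes share a list. Clustered protocadherins hold no high member, and no member is on both lists. The tally therefore overstates how much was tested. Members on the high list numbered 10 to 13 and on the low list 34 to 47, and the high share ran from 19.6% to 27.7%. The background share on the high list was 54.1% over protein coding symbols and 54.4% without OR, KRTAP, DEFB and LINC symbols, in place of 50.6%. The median span of high members was 117 kb without name-only symbols, in place of 71.0 kb, an alternative chosen after seeing the data, as were the same restriction for CpG ratios and the promoter window of 250 bases. With neighbours of 1 list merged, 1 of 2 desmosomal cadherin loci was high in place of 1 of 5, since the 4 low genes then count as 1 locus. RefSeq spans gave medians of 57.7 kb (high) and 38.1 kb (low), in place of 71.0 and 36.4 kb. How depth bears on list membership was not tested, since neither the selection rule nor a level per gene is known.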
